A study of Mus musculus with 12 samples.

Results

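The genes described here are the matrix metalloproteases (Mmp), the ADAMTS proteases (Adamts) and the tissue inhibitors of metalloproteases (Timp). They were chosen by symbol in the probe annotation, and 42 of 19057 named genes matched: 21 Mmp, 17 Adamts and 4 Timp genes, carried by 83 probes. Of these, 18 were detected on enough arrays to be tested, among 8898 tested genes. RNA came from mouse embryonic fibroblasts labelled as C57BL/6J and was measured on 12 Illumina bead arrays, 3 in each of 4 groups. The groups were Ulk1/2-/- cells (double knockout, DKO) given mouse interferon beta (IFNβ) at 2500 IU/ml for 6 h, untreated DKO cells, Ulk1/2+/+ cells (wild type, WT) given the same IFNβ, and untreated WT cells. Ulk1 and Ulk2 encode related kinases best known for starting autophagy, and the title of the study asks what part ULK1 plays in type I interferon signalling. The labels do not say how many embryos or cell lines gave rise to each genotype, nor whether replicate numbers stand for independent cultures; p-values therefore cover the variation among these samples alone, which may be technical.

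Matrix metalloproteases are zinc enzymes, secreted or held at the cell surface, that are made as inactive precursors and cut collagens, gelatin, proteoglycans and other matrix proteins once their propeptide is removed. ADAMTS proteases are secreted relatives that bind the matrix and cut large proteoglycans, procollagens and other matrix proteins. TIMPs are small secreted proteins that block the active site of these enzymes, and fibroblasts are a main source of both the enzymes and their inhibitors. In many cell types the genes of the collagenases and stromelysins are known to be switched on by AP-1, a dimer of Fos and Jun family proteins.

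Ulk1 and Ulk2 were detected on all 6 WT arrays and on 0 of 6 DKO arrays, as the labels state. The arrays detected 13732 to 15240 of their 45281 probes. The cells of the genotypes also differed in sex: Xist was detected on 6 DKO arrays and on 0 WT arrays, and the Y-linked Eif2s3y on 6 WT arrays and on 0 DKO arrays, so sex and Ulk1/2 genotype cannot be told apart. Of 12 fibroblast markers, 8 were detected on all 3 arrays of each DKO group and 11 on all 3 arrays of each WT group; Pdgfra and Dcn were detected on 0 DKO arrays. Median raw intensity split the arrays into a lower set (WT replicates 1 and 2, DKO replicate 1) and a higher set (WT replicate 3, DKO replicates 2 and 3), with both treatments in each. Each DKO group is thus a single array in the lower set, and each WT group a single array in the higher set. All levels below are background-corrected, quantile-normalized log2 intensities of 1 probe per gene, and levels of different genes are not compared. The number of arrays limits the precision of every value.

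Detection divided the 42 genes sharply. Of the 24 untested genes, 22 were not well above background on any array at a detection p under 0.01, which leaves only an upper bound on their level. Among them were the gelatinase gene Mmp9, the neutrophil collagenase gene Mmp8, the matrilysin gene Mmp7, the macrophage elastase gene Mmp12 and the stromelysin gene Mmp10. The others were Mmp1b, Mmp20, Mmp21 and Mmp25, Timp4, and 12 ADAMTS genes (Adamts3, Adamts8, Adamts9, Adamts10, Adamts13, Adamts14, Adamts15, Adamts16, Adamts17, Adamts18, Adamts19 and Adamts20). In each of the 4 groups, 8 of 9 macrophage markers were also detected on 0 arrays; the exception was Cd14, detected on all 12. Mmp19 was detected on 1 untreated DKO array and 1 untreated WT array, and Mmp17, a membrane-anchored protease gene, on 2 of 3 DKO arrays after IFNβ and on 0 arrays of the other groups. The number of genes detected on all 3 arrays of a group was 14 in DKO cells after IFNβ, 15 in untreated DKO cells, 15 in WT cells after IFNβ and 15 in untreated WT cells.

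**Figure D1:**
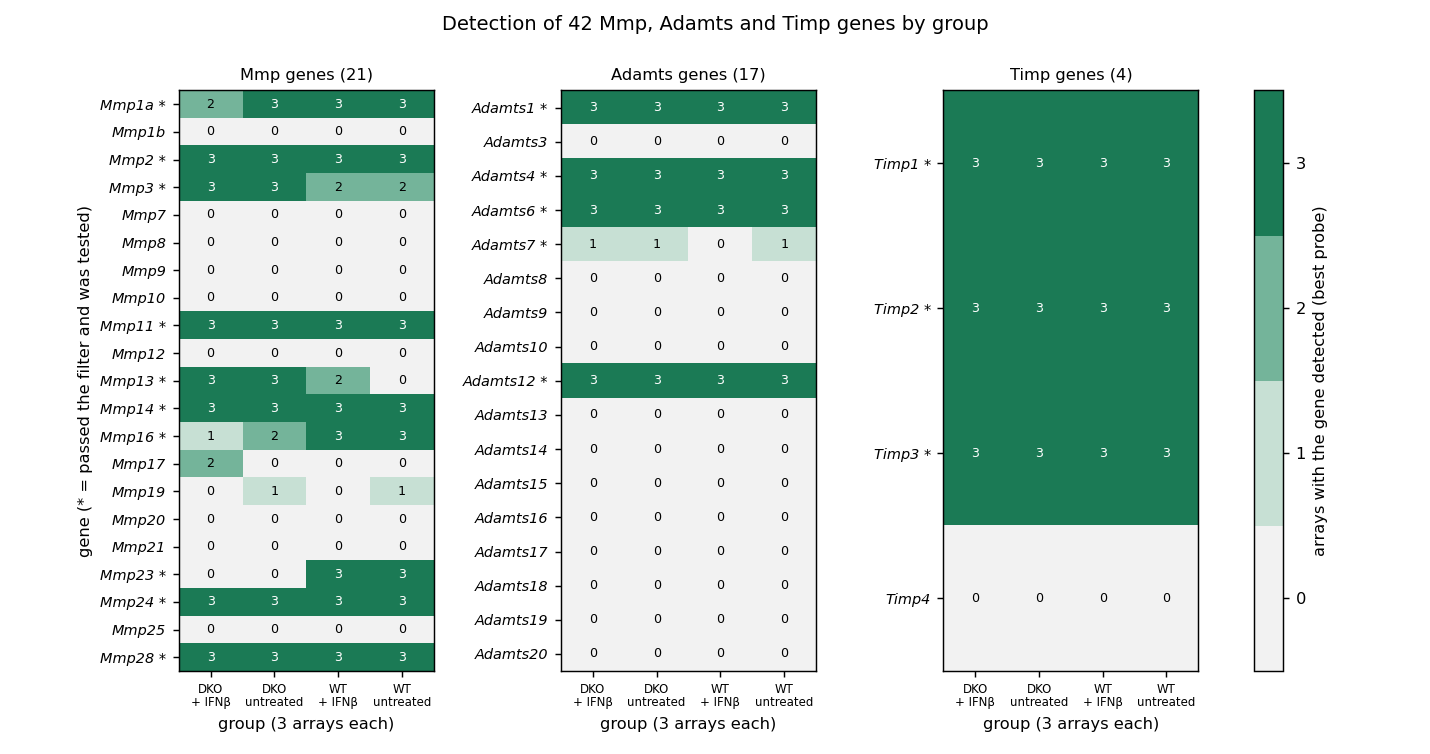
Number of arrays, of 3 per group, on which each of the 42 genes was detected (detection p under 0.01, best probe), in 4 columns of groups and in panels for 21 Mmp, 17 Adamts and 4 Timp genes; an asterisk marks the 18 tested genes. Mmp23 is detected on 0 DKO and 6 WT arrays, and Mmp13 on 0 untreated WT arrays.

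In untreated cells, genotype separated most of the tested genes: 12 of 18 passed the limma test at a Benjamini-Hochberg adjusted p under 0.05, 7 higher and 5 lower in DKO than in WT cells. Across all 8898 tested genes the share was 33.9%, with 15.9% higher and 18% lower. The 7 higher genes were Mmp13, Adamts12, Adamts6, Mmp3, Mmp11, Adamts1 and Mmp14, and the 5 lower genes were Mmp23, Timp1, Mmp16, Mmp2 and Timp3. By family, 3 of 5 tested Adamts genes were higher and 0 lower, 4 of 10 Mmp genes were higher and 3 lower, and 0 of 3 Timp genes were higher and 2 lower. The median log2 difference was 0.13 over the 18 genes and -0.03 over all tested genes. The values of DKO and WT arrays did not overlap in 12 of the 18 genes, against 45.9% of all tested genes.

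After IFNβ, 8 of the 18 genes passed between the genotypes, 5 higher and 3 lower in DKO cells, against 31.8% of all tested genes (15.3% higher and 16.5% lower). With median scaling in place of quantile normalization, the calls over all genes after IFNβ were 958 higher and 1608 lower, against 1362 and 1469. Mmp13, Mmp3, Adamts12, Adamts6 and Adamts1 were again higher in DKO cells, and Mmp23, Timp1 and Mmp2 again lower. Mmp11, Mmp14, Mmp16 and Timp3 passed in untreated cells but not after IFNβ; the interaction test of the difference between these comparisons passed for none of the 4 without pairing of arrays, and for Timp3 with arrays paired by number within a genotype (limma adjusted p = 0.015). The arrays did not overlap in 10 of the 18 genes, against 43.2% of all tested genes. Fewer cells of a type and less RNA per cell cannot be told apart in these bulk samples.

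**Figure D2:**
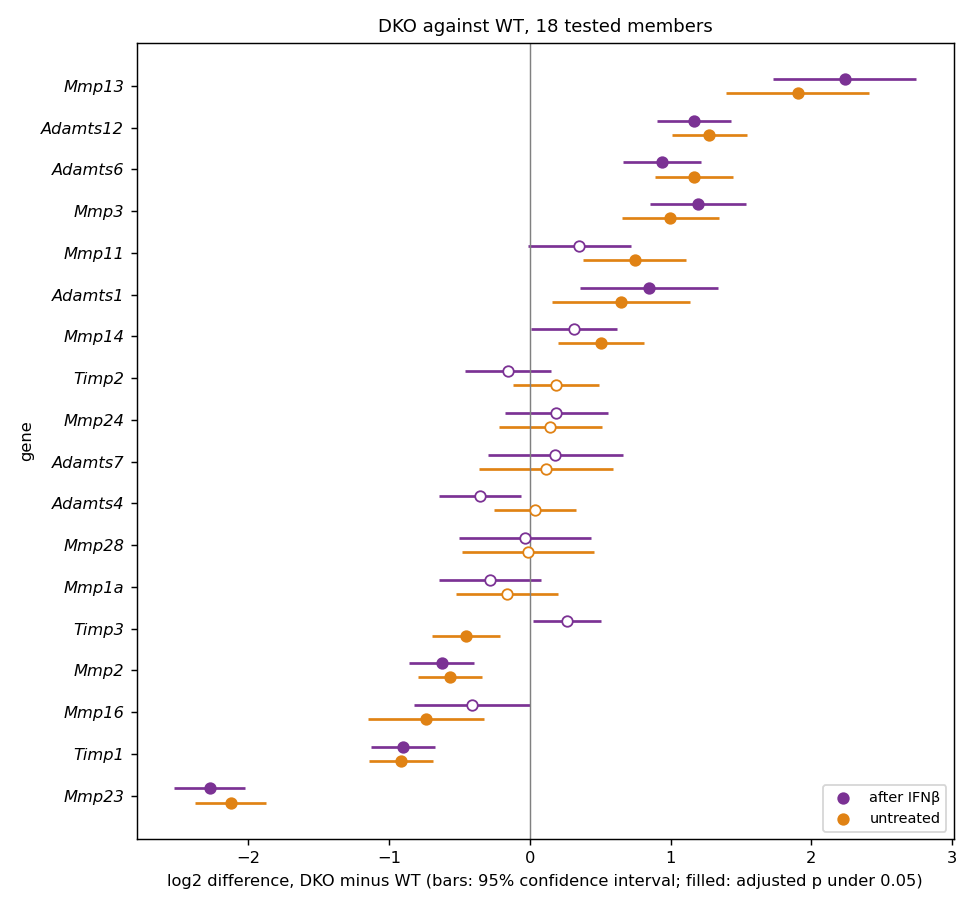
Log2 difference of DKO minus WT cells for the 18 tested genes (horizontal axis), after IFNβ (purple) and untreated (orange), with 95% confidence intervals of the limma fit; filled points passed at an adjusted p under 0.05. Mmp13 lies farthest to the right and Mmp23 farthest to the left of the 18 genes in both comparisons.

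Some markers of fibroblasts and of other cell types differed between the untreated genotypes, as did 33.9% of all tested genes (15.9% higher and 18% lower). In untreated DKO cells, 6 of 11 tested fibroblast markers were lower than in WT cells and 1 was higher: Pdgfra had a log2 difference of -4.26, Thy1 of -1.13 and Pdgfrb of 1.20. All 3 tested smooth muscle markers were higher (log2 difference 2.97 for Mylk, 0.60 for Tagln and 0.27 for Acta2). So were 2 of 3 tested epithelial markers (3.42 for Krt19 and 0.77 for Krt18). Of the tested cartilage and bone markers, 2 of 3 were lower (Acan by a log2 difference of -1.37, Sox9 by -1.12). Summed over their list on the linear scale, epithelial markers reached 395.7 to 453.1 on untreated DKO arrays and 177.3 to 193.3 on untreated WT arrays, and cartilage and bone markers 608.1 to 738.7 and 1078.3 to 1392.6. The same sums were 23311 to 27065 for smooth muscle markers on untreated DKO arrays and 20248 to 20662 on untreated WT arrays, and 9838 to 11503 and 10570.1 to 12268 for fibroblast markers. After IFNβ, 7 of 11 fibroblast markers were lower in DKO cells and 1 was higher, against 16.5% and 15.3% of all tested genes. Epcam, Krt5, Krt14, Col2a1, Sp7 and Myh11, which define epithelial, cartilage, bone and smooth muscle cells, were detected on 0 arrays. Their part in the genotype differences of the proteases was not tested.

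Mmp13 and Mmp3, both higher in DKO cells, belong to a run of 10 adjacent Mmp genes on chromosome 9 of the mouse (Mmp13, Mmp12, Mmp1b, Mmp3, Mmp1a, Mmp10, Mmp8, Mmp27, Mmp20 and Mmp7). Of the 9 genes of this run that are among the 42, Mmp13, Mmp3 and Mmp1a were tested and 6 were not. Promoters of these 3 are shown because the run is known for AP-1 control and because Mmp13 and Mmp3 differed between the genotypes while Mmp1a did not pass. They are RefSeq sequences of build GRCm38.p6, from 250 bases before to 50 bases after the gene start, 5′ to 3′. Capitals mark matches to the AP-1 motif TGANTCA and, in Mmp13 alone, a match to the interferon-stimulated response element (ISRE) motif, TTTC repeated after 2 free bases.
Mmp13 (chr9:7272264-7272563, plus strand): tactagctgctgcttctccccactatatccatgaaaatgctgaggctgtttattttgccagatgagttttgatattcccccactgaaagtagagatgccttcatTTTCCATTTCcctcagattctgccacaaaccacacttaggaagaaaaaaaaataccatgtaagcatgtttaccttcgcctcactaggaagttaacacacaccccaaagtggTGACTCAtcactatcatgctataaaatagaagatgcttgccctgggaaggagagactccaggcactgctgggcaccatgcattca
Mmp3 (chr9:7445572-7445871, plus strand): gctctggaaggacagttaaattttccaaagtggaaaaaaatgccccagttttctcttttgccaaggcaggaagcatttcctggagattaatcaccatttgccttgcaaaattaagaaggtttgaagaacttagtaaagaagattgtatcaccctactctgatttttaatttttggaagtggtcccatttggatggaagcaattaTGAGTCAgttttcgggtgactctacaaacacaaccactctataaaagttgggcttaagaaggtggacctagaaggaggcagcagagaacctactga
Mmp1a (chr9:7463891-7464190, plus strand): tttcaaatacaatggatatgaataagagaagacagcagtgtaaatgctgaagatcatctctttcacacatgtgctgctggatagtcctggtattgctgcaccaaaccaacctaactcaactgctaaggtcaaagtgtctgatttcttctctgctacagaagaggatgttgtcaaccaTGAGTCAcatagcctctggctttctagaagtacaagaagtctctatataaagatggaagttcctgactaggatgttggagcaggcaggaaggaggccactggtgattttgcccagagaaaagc
The AP-1 match starts 35 bases before the gene start in Mmp13, 46 in Mmp3 and 73 in Mmp1a. On either strand, TGANTCA occurred in 7.81% of 32851 promoters of this length, and in those of 8 of the 29 genes of the 42 that have a promoter in the table: Mmp13, Mmp3, Mmp1a, Mmp1b, Mmp7, Mmp10, Mmp12 and Mmp20, which all lie in the run. The ISRE motif occurred in 3.44% of all promoters and in 1 of the 29 genes, Mmp13, and the STAT motif TTCNNNGAA in 8.3% and in 1 of the 29, Mmp23. A match describes the letters and does not show that a factor binds there.

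Mmp13, the main interstitial collagenase gene of rodents, was higher in DKO than in WT cells in both conditions. This rests on 1 of its 3 probes, the only one that passed the filter. The other Mmp13 probes were detected on 0 arrays, DKO arrays included, and so do not test the difference. The log2 level of Mmp13 was 6.69, 6.36 and 5.75 on the untreated DKO arrays, against 4.36, 4.26 and 4.46 on the untreated WT arrays. After IFNβ it was 7.75, 7.00 and 6.80 in DKO cells, against 4.82, 4.98 and 5.03 in WT cells. Every DKO array lay above every WT array, and the untreated WT arrays were not well above background. After background correction with offset 16, Mmp13 was therefore at least 2.56-fold higher in untreated DKO than untreated WT cells (limma adjusted p = 2.8e-05). This bound set the DKO mean against the lowest detected signal of the WT arrays or the probe's own signal there, whichever was higher. Like the other bounds below, it holds for that correction alone and leaves out the spread among arrays. After IFNβ, when 2 of 3 WT arrays detected Mmp13, the log2 difference was 2.24 ± 0.24 (SE), which is 4.72-fold (limma adjusted p = 6.2e-06). The size depended on the background correction: without it, and in the authors' deposited log2 table, the log2 difference was 0.73 untreated and 1.08 after IFNβ, and with an offset of 50 it was 1.03 and 1.48, all of which passed. The fits without background correction and on the authors' table gave the same values, here and below, and so amount to 1 alternative. Within the lower background set, where each DKO group is a single array, the log2 difference was 2.85 after IFNβ.

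Mmp3 encodes stromelysin-1, which cuts proteoglycans and laminin and activates other precursors. It was 5.78, 6.04 and 5.45 in untreated DKO cells, against 4.95, 4.59 and 4.73 in untreated WT cells, and 6.37, 6.20 and 6.01 in DKO cells after IFNβ, against 5.04, 4.79 and 5.17 in WT cells after IFNβ. The genotypes did not overlap in either condition, and this probe was detected on all 6 DKO arrays, on 2 of 3 WT arrays after IFNβ and on 1 of 3 untreated WT arrays, so the WT values lie near background. The log2 difference was 1.00 ± 0.16 (SE) untreated (limma adjusted p = 0.00026) and 1.20 ± 0.16 after IFNβ (limma adjusted p = 5.6e-05), and the 2 other kept Mmp3 probes passed in the same direction in both comparisons. Without background correction, and in the authors' deposited log2 table, the Mmp3 differences were 0.35 untreated and 0.47 after IFNβ, and both passed.

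Mmp11 encodes stromelysin-3, a secreted protease activated inside the cell by furin. Its level was 6.81, 6.48 and 6.47 in untreated DKO cells, against 5.98, 6.07 and 5.48 in untreated WT cells, a log2 difference of 0.74 ± 0.17 (SE; limma adjusted p = 0.0039). After IFNβ the values were 6.15, 5.99 and 5.88 in DKO cells, against 5.96, 5.45 and 5.56 in WT cells. The arrays overlapped after IFNβ and the difference of 0.35 did not pass (limma adjusted p = 0.14). Mmp1a, the mouse relative of human interstitial collagenase, was 5.28, 5.19 and 5.12 in untreated DKO cells, against 5.15, 5.54 and 5.37 in untreated WT cells. These overlapped, and the 95% confidence interval of the difference ran from -0.52 to 0.20.

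Mmp23, a membrane protease gene with an unusual cysteine-rich domain, had the lowest value in DKO relative to WT cells of the 18 genes. It read 4.57, 4.26 and 4.27 in untreated DKO cells, against 6.60, 6.43 and 6.44 in untreated WT cells, and 4.64, 4.46 and 4.33 in DKO cells after IFNβ, against 6.74, 6.66 and 6.85 in WT cells after IFNβ. All 6 WT arrays detected it and 0 of 6 DKO arrays did. It was at least 3.10-fold lower in DKO cells untreated (limma adjusted p = 9.3e-09) and at least 3.49-fold lower after IFNβ (limma adjusted p = 4.4e-09). Without background correction, and in the authors' deposited log2 table, the log2 difference was -0.84 untreated and -0.94 after IFNβ, and with an offset of 50 it was -1.18 and -1.33, all of which passed.

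The gelatinase gene Mmp2 and its activator Mmp14 differed in opposite directions in untreated cells. Mmp2 was 9.73, 9.61 and 9.51 in untreated DKO cells, against 10.36, 10.05 and 10.14 in untreated WT cells, with no overlap and a log2 difference of -0.57 ± 0.11 (SE; limma adjusted p = 0.001). With IFNβ the level was 9.41, 9.32 and 9.30 in DKO cells, against 10.07, 9.96 and 9.88 in WT cells, a log2 difference of -0.63 ± 0.11 (limma adjusted p = 0.00049). Mmp14, which encodes the membrane protease MT1-MMP, was 12.47, 12.44 and 12.23 in untreated DKO cells, against 11.81, 11.90 and 11.92 in untreated WT cells. Its log2 difference was 0.50 ± 0.14 (SE; limma adjusted p = 0.014). Without untreated DKO replicate 2 this was 0.47 and no longer passed (limma adjusted p = 0.052), and after IFNβ the difference was 0.32 (limma adjusted p = 0.11).

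Mmp16 encodes another membrane-type protease, MT3-MMP. It was 4.95, 4.91 and 4.50 in untreated DKO cells, against 5.76, 5.41 and 5.40 in untreated WT cells, without overlap and with a log2 difference of -0.74 ± 0.19 (SE; limma adjusted p = 0.0087). After IFNβ it was 5.28, 4.76 and 4.40 in DKO cells, against 5.27, 5.20 and 5.19 in WT cells. DKO replicate 1 stood just above all WT arrays there, the difference of -0.41 did not pass (limma adjusted p = 0.12), and without that array it was -0.65 and passed (limma adjusted p = 0.0097). The probe used was detected on every WT array, but on 2 of 3 untreated DKO arrays and 1 of 3 after IFNβ. Without background correction its untreated difference was -0.24 and passed. A second Mmp16 probe passed in both conditions, with log2 differences of -0.42 untreated and -0.57 after IFNβ (limma adjusted p = 0.023 and 0.0041). It was detected on 0 DKO arrays, 1 of 3 WT arrays after IFNβ and 3 of 3 untreated WT arrays, so its values lie near background.

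**Figure D3:**
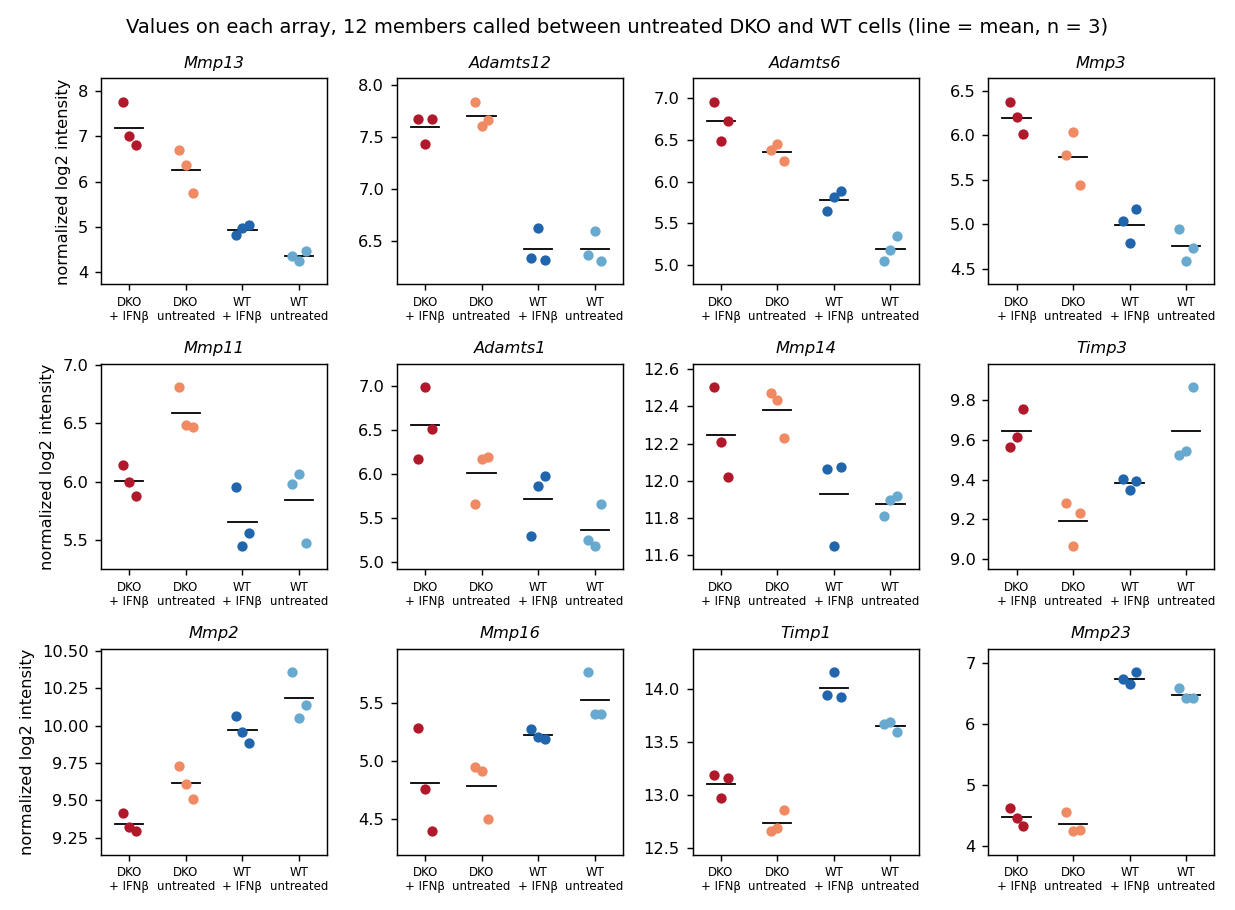
Normalized log2 intensity on each array (points; the line is the mean of 3) for the 12 genes that passed between untreated DKO and WT cells, in the groups DKO with IFNβ, DKO untreated, WT with IFNβ and WT untreated; each panel has its own vertical axis, which does not start at 0. Mmp13 in untreated cells lies at 5.75 to 6.69 in DKO and 4.26 to 4.46 in WT, and Mmp23 at 4.26 to 4.57 in DKO and 6.43 to 6.60 in WT.

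Among the ADAMTS genes, Adamts12 and Adamts6 showed the clearest genotype differences. These rest on the probes that passed the filter, 1 of 3 for Adamts12 and 2 of 3 for Adamts6. The other Adamts12 probes were detected on 0 arrays, and the other Adamts6 probe on 2 WT and 0 DKO arrays. Adamts12, whose protein cuts cartilage oligomeric matrix protein, was 7.84, 7.61 and 7.66 in untreated DKO cells, against 6.37, 6.60 and 6.32 in untreated WT cells. With IFNβ the level was 7.68, 7.43 and 7.68 in DKO cells, against 6.34, 6.63 and 6.32 in WT cells. Both gaps were wider than the range within any group, and the gene was 2.42-fold higher in DKO cells untreated (log2 difference 1.27 ± 0.12, SE; limma adjusted p = 2.5e-06) and 2.24-fold higher after IFNβ (limma adjusted p = 6.2e-06). Adamts7, whose protein shares that substrate, was 5.43, 4.67 and 4.47 in untreated DKO cells, against 4.65, 4.67 and 4.91 in untreated WT cells, and did not pass (limma adjusted p = 0.73). It was detected on 1 of the 3 arrays in each of these groups.

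Adamts6, a gene known in mice for a part in heart development, was 6.38, 6.45 and 6.25 in untreated DKO cells, against 5.05, 5.18 and 5.35 in untreated WT cells. After IFNβ it was 6.95, 6.49 and 6.73 in DKO cells, against 5.65, 5.82 and 5.88 in WT cells. All DKO arrays lay above all WT arrays, including untreated DKO arrays above treated WT arrays. The log2 difference was 1.16 ± 0.13 (SE) untreated (limma adjusted p = 9.7e-06) and 0.94 ± 0.13 after IFNβ (limma adjusted p = 7.6e-05), and the second Adamts6 probe passed in the same direction. Without background correction, and in the authors' deposited log2 table, the untreated difference was 0.50 and passed.

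Adamts1 and Adamts4 encode proteases that cut the proteoglycans versican and aggrecan. Adamts1 was 5.67, 6.18 and 6.19 in untreated DKO cells, against 5.25, 5.19 and 5.66 in untreated WT cells, and 6.17, 6.99 and 6.52 in DKO cells after IFNβ, against 5.30, 5.86 and 5.98 in WT cells after IFNβ. The groups nearly met in untreated cells without overlapping, and the log2 difference was 0.65 ± 0.23 (SE) untreated (limma adjusted p = 0.041) and 0.85 ± 0.23 after IFNβ (limma adjusted p = 0.011). The untreated call was lost without untreated WT replicate 1 or 2, untreated DKO replicate 2 or 3, or DKO replicate 3 after IFNβ (log2 difference 0.56 to 0.65, largest limma adjusted p = 0.13), and the call after IFNβ without treated WT replicate 1 or treated DKO replicate 2 (0.64 and 0.63, limma adjusted p = 0.06 and 0.058). The untreated call was also lost under 7 of 13 processing alternatives. These include both background sets, and the fits without background correction and on the authors' table, which gave the same values. Both other Adamts1 probes passed in the same direction in both conditions. Adamts4 was 6.73, 6.80 and 6.69 in untreated DKO cells, against 6.52, 6.90 and 6.70 in untreated WT cells. These overlapped, and the 95% confidence interval of the log2 difference ran from -0.25 to 0.33.

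Of the inhibitors, Timp1 and Timp3 were lower in untreated DKO cells and Timp2 did not pass. Timp1, which blocks most secreted matrix metalloproteases, was 12.66, 12.69 and 12.86 in untreated DKO cells, against 13.67, 13.68 and 13.60 in untreated WT cells. With IFNβ the level was 13.19, 12.97 and 13.16 in DKO cells, against 13.94, 14.16 and 13.92 in WT cells. No DKO array reached any WT array, and the gene was 1.89-fold lower untreated (log2 difference -0.92 ± 0.11, SE; limma adjusted p = 1.4e-05) and 1.87-fold lower after IFNβ (limma adjusted p = 1.7e-05). The second Timp1 probe gave log2 differences of -0.90 and -1.03. Timp1 lies on the X chromosome, where 86 of 271 tested genes were higher and 26 lower in untreated DKO cells, with a median log2 difference of 0.21; the part of sex in the Timp1 difference cannot be told apart from that of genotype.

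The Timp1 promoter is shown beside those of Mmp13, Mmp3 and Mmp1a because the gene differed between the genotypes in the opposite direction to Mmp13 and Mmp3. It is from the same RefSeq build and window, and no capitals appear because none of the 3 motifs matched exactly. The stretch tgagtaa near its end differs from TGANTCA in the next-to-last base and was not counted. The search took exact matches only, so it does not show that this promoter lacks an AP-1 site.
Timp1 (chrX:20869916-20870215, plus strand): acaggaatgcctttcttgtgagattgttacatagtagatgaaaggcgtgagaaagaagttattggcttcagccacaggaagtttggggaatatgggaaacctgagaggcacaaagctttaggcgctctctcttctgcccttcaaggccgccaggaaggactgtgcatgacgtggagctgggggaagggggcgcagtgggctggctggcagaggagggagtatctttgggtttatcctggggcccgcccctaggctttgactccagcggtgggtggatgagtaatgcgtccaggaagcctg

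Timp3 encodes the inhibitor that binds the matrix and also blocks ADAMTS4 and ADAM17. It was 9.28, 9.07 and 9.23 in untreated DKO cells, against 9.52, 9.54 and 9.86 in untreated WT cells, a log2 difference of -0.45 ± 0.11 (SE; limma adjusted p = 0.0068). After IFNβ it was 9.56, 9.61 and 9.76 in DKO cells, against 9.40, 9.35 and 9.39 in WT cells. The order of the genotypes was thus opposite in the treated arrays, where the difference of 0.26 did not pass (limma adjusted p = 0.092). A second Timp3 probe passed untreated (-0.40), and the remaining probe did not (-0.06, limma adjusted p = 0.89). Timp2, whose protein both inhibits MT1-MMP and helps it activate the Mmp2 product, was 10.94, 10.71 and 10.55 in untreated DKO cells, against 10.70, 10.63 and 10.31 in untreated WT cells, with overlap and a 95% confidence interval of -0.12 to 0.49.

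With IFNβ, fewer of these genes passed than between the untreated genotypes. In DKO cells, 4 of 18 passed against untreated cells: Mmp13, Timp3 and Timp1 rose and Mmp11 fell, against 11.4% of all tested genes (6.25% higher and 5.16% lower). In WT cells, 4 of 18 passed, all upward: Adamts6, Adamts4, Timp2 and Timp1, against 18.7% of all tested genes (8.08% higher and 10.7% lower). The median log2 change was 0.07 in DKO and 0.04 in WT cells over the 18 genes, and -0.07 and -0.08 over all tested genes. With median scaling, the calls over all genes in DKO cells were 427 higher and 622 lower, against 556 and 459. Arrays did not overlap between IFNβ and untreated cells in 6 of 18 genes in DKO and 8 of 18 in WT cells, against 28.9% and 33.8% of all tested genes. The genotype and IFNβ comparisons share arrays, so their values are given side by side only.

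With arrays paired by number within each genotype, as their shared deviations allow, 8 of the 18 genes passed in DKO cells, 6 upward and 2 downward. Of all 8898 tested genes, 1923 passed there, 810 higher and 1113 lower. Adamts1 (0.55), Mmp3 (0.44) and Adamts6 (0.36) joined the genes that rose, and Mmp2 (-0.27) joined Mmp11 among those that fell (limma adjusted p = 0.0083, 0.012, 0.029 and 0.039 with the pairs). In WT cells 6 passed, all upward, with Mmp13 (0.58) and Mmp23 (0.26) added (limma adjusted p = 0.0011 and 0.041 with the pairs). The paired fit called 2804 of all 8898 genes in WT cells, 1016 higher and 1788 lower. Without the pairs, the Adamts1 probe used here did not pass for IFNβ in DKO cells (limma adjusted p = 0.15). Both other Adamts1 probes passed there (log2 change 0.65 and 0.64, limma adjusted p = 0.0063 and 0.016). The average of the kept Adamts1 probes passed there too. In WT cells neither other probe passed (0.19 and 0.40, limma adjusted p = 0.41 and 0.1).

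**Figure D4:**
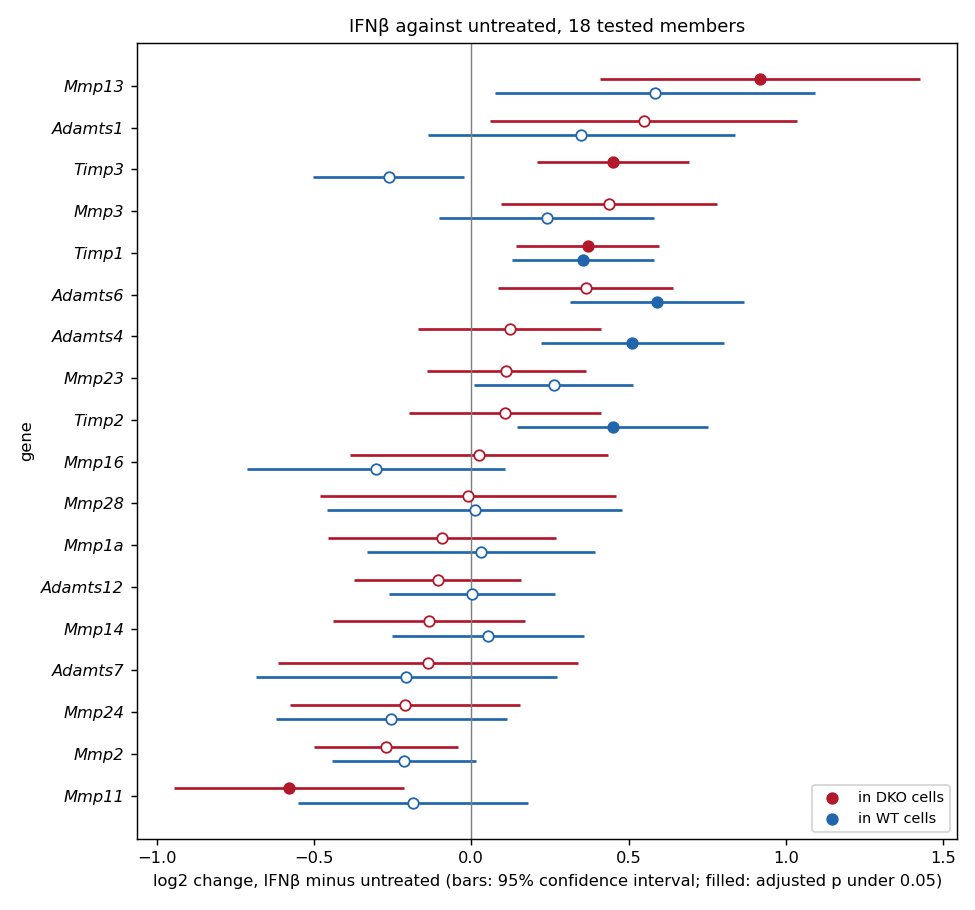
Log2 change with IFNβ (horizontal axis, IFNβ minus untreated) of the 18 tested genes in DKO cells (red) and WT cells (blue), with 95% confidence intervals of the limma fit without pairs; filled points passed at an adjusted p under 0.05. Timp3 is the gene with its 2 points on opposite sides of 0 and both intervals clear of 0.

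Mmp13 in DKO cells was 7.75, 7.00 and 6.80 after IFNβ, against 6.69, 6.36 and 5.75 untreated, with all treated arrays above all untreated ones. The log2 change was 0.92 ± 0.24 (SE; limma adjusted p = 0.021), and it was 0.66 and 0.64 without untreated replicate 3 or treated replicate 1 of the DKO cells, when it did not pass (limma adjusted p = 0.09 and 0.069). In WT cells Mmp13 was 4.82, 4.98 and 5.03 after IFNβ, against 4.36, 4.26 and 4.46 untreated, near the detection limit. The treated WT arrays were all above the untreated ones, but the change of 0.58 ± 0.24 did not pass without the pairs (limma adjusted p = 0.11), and the bound against undetected arrays was at least 1.02-fold. It passed with the background set as a block, within the lower background set and without treated DKO replicate 1 (0.58, 0.59 and 0.59; limma adjusted p = 0.038, 0.016 and 0.04). The change in DKO minus that in WT cells was 0.34, with a 95% confidence interval of -0.38 to 1.05.

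Timp1 rose by a log2 change of 0.37 ± 0.11 (SE; limma adjusted p = 0.036) in DKO cells and 0.36 ± 0.11 (limma adjusted p = 0.03) in WT cells, with no overlap in either. Both calls depended on which arrays, and in some refits which probe, entered the fit. In DKO cells it was lost without any 1 of 7 arrays, namely all untreated DKO replicates, treated DKO replicates 1 and 3, untreated WT replicate 2 and treated WT replicate 2 (log2 change 0.16 to 0.37, largest limma adjusted p = 0.46). The refit without treated WT replicate 2 used the second Timp1 probe, so this range does not reflect left-out arrays alone. In WT cells the call was lost without any untreated WT replicate (largest limma adjusted p = 0.078, log2 change 0.335 to 0.373). The second Timp1 probe passed in WT cells (0.33, limma adjusted p = 0.026) and not in DKO cells (0.20, limma adjusted p = 0.23).

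Adamts6 in WT cells was 5.65, 5.82 and 5.88 after IFNβ, against 5.05, 5.18 and 5.35 untreated. The treated arrays were all higher, the log2 change was 0.59 ± 0.13 (SE; limma adjusted p = 0.0054), and the call held without each array in turn. In DKO cells the change was 0.36 ± 0.13 and did not pass without the pairs (limma adjusted p = 0.093). There the second Adamts6 probe passed (0.61, limma adjusted p = 0.0035), as did the mean of both kept probes (0.49) and the fit without treated DKO replicate 2 (0.48, limma adjusted p = 0.041). Adamts4 in WT cells was 7.33, 7.20 and 7.12 after IFNβ, against 6.52, 6.90 and 6.70 untreated, without overlap. Its log2 change was 0.51 ± 0.13 (SE; limma adjusted p = 0.017), and 0.42 and 0.45 without untreated or treated WT replicate 1, when it did not pass (limma adjusted p = 0.075 and 0.067). In DKO cells it was 7.04, 6.98 and 6.57 after IFNβ, against 6.73, 6.80 and 6.69 untreated, a log2 change of 0.12 (limma adjusted p = 0.66).

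Timp2 in WT cells was 11.20, 11.02 and 10.77 after IFNβ, against 10.70, 10.63 and 10.31 untreated. The lowest treated array lay just above the highest untreated one, with a log2 change of 0.45 ± 0.14 (SE; limma adjusted p = 0.04). This call was lost without untreated WT replicate 2 or 3, treated WT replicate 1 or 2, untreated DKO replicate 2 or treated DKO replicate 3 (log2 change 0.33 to 0.49, largest limma adjusted p = 0.15). Mmp11 in DKO cells was 6.15, 5.99 and 5.88 after IFNβ, against 6.81, 6.48 and 6.47 untreated, a log2 change of -0.58 ± 0.17 (SE; limma adjusted p = 0.042). All treated arrays lay below all untreated ones. The call was lost without any untreated DKO replicate or treated DKO replicate 2 or 3 (log2 change -0.64 to -0.47, largest limma adjusted p = 0.16).

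Timp3 had opposite signs in the genotypes. In DKO cells it was 9.56, 9.61 and 9.76 after IFNβ, against 9.28, 9.07 and 9.23 untreated, and rose by a log2 change of 0.45 ± 0.11 (SE; limma adjusted p = 0.017). In WT cells it was 9.40, 9.35 and 9.39 after IFNβ, against 9.52, 9.54 and 9.86 untreated, a log2 change of -0.26 ± 0.11 that did not pass (limma adjusted p = 0.13). All treated DKO arrays lay above and all treated WT arrays below the untreated arrays of their genotype. The DKO call was lost without untreated DKO replicate 2 or treated DKO replicate 3 (0.39 in both cases, limma adjusted p = 0.083 and 0.081). It was also lost with median scaling (0.40, limma adjusted p = 0.13) and as the mean of its 3 kept probes (0.39, limma adjusted p = 0.11). Within the lower background set, where treated and untreated DKO cells are a single array each, the change was 0.28. Of the other probes, 1 passed in DKO cells (0.44, limma adjusted p = 0.027) and 1 did not (0.27, limma adjusted p = 0.62).

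The interaction, the IFNβ change in DKO minus that in WT cells, passed for 0 of the 18 genes in limma, against 1.05% of all tested genes, and 1 of the 18 had an unadjusted p under 0.05. That gene was Timp3, with 0.71 ± 0.16 (SE), a 95% confidence interval of 0.37 to 1.05 and a limma adjusted p of 0.0503. It passed with the pairs (limma adjusted p = 0.015), without untreated WT replicate 1 (0.78, limma adjusted p = 0.043) and under 6 other alternatives (0.65 to 0.71). Of these, the fits without background correction and on the authors' log2 table gave the same values. The other Timp3 probes gave 0.50 and 0.56 and did not pass (limma adjusted p = 0.31 and 0.78). In that separate fit of all kept probes, the Timp3 probe used here had a limma adjusted p of 0.065.

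Mmp1a, Mmp24, Mmp28 and Adamts7 passed in none of the 5 comparisons. Mmp24 encodes the membrane-type protease MT5-MMP and Mmp28 the secreted protease epilysin, and both were detected on all 12 arrays. Mmp24 was 8.23, 8.45 and 8.56 in untreated DKO cells, against 8.03, 8.16 and 8.60 in untreated WT cells, and its log2 difference had a 95% confidence interval of -0.22 to 0.51. Mmp28 was 5.28, 5.20 and 5.87 in untreated DKO cells, against 5.50, 5.18 and 5.70 in untreated WT cells, with an interval of -0.48 to 0.46. The groups overlapped for both genes.

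Related genes gave the following counts in the same limma fit. Of 7 tested ADAM and ADAMTS-like genes, untreated DKO cells had 0 at a higher and 2 at a lower level than WT cells: Adam17, a sheddase that Timp3 inhibits, had a log2 difference of -0.92 and Adamtsl4 of -0.80. After IFNβ 3 were lower, and IFNβ itself moved 0 of 7 in either genotype. A further list was drawn up for the plasminogen system, whose product plasmin activates several metalloprotease precursors. Of its 7 tested genes, 2 were higher and 1 lower in untreated DKO cells. The urokinase receptor gene Plaur had a log2 difference of 0.88 and the plasminogen activator gene Plat of -0.80. The other higher gene was Serpinh1 (0.30), which was in the list but is not a gene of that system. The urokinase gene Plau rose with IFNβ in WT cells (log2 change 0.56), as did the plasminogen receptor gene Plgrkt (0.52), while 0 of 7 passed with IFNβ in DKO cells.

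Among 12 other matrix proteases and inhibitors, untreated DKO cells had 3 at a higher and 3 at a lower level than WT cells. The serine protease gene Htra1 had a log2 difference of -2.25, the collagen-cutting cathepsin gene Ctsk of 1.76, the proprotein convertase gene Pcsk6 of 1.01 and the procollagen C-proteinase gene Bmp1 of 0.73. IFNβ moved 0 of the 12 in either genotype. Of 17 matrix substrates, 7 were higher and 4 lower in untreated DKO cells. The basement membrane collagen genes Col4a1 and Col4a2 were 22.6-fold and 22.3-fold higher, Nid2 had a log2 difference of 1.45, and the proteoglycan gene Dcn was at least 2.70-fold lower. IFNβ raised 2 of 17 in each genotype, the matrix genes Thbs1 (log2 change 0.72 in DKO and 0.64 in WT cells) and Tnc (0.37 in DKO and 0.56 in WT cells).

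Of 14 tested genes for AP-1 subunits, other transcription factors and cytokines known to act on metalloprotease genes, 6 rose and 0 fell with IFNβ in DKO cells, and 5 rose and 1 fell in WT cells. In DKO cells Fosb rose by a log2 change of 2.82, Fos by 2.11, Jun by 0.69 and Junb by 0.69. In WT cells Fosb rose by 1.40, Jun by 0.60, Junb by 0.59 and the cytokine gene Il6 at least 1.25-fold. Between untreated DKO and WT cells 2 were higher and 3 lower: Etv4 had a log2 difference of 1.26, Etv5 of 0.45, and Rela of -0.36, and Tgfb1 was 2.01-fold lower. The interaction passed for 0 genes of any of these 5 lists.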

How the data were processed

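Biotin-labelled cRNA was hybridised to Illumina mouse bead arrays, per the labels' protocols. The deposited intensity values are 1 linear value per probe and array, neither background-subtracted nor normalized. The deposited detection p-value is taken against negative controls, in steps of 1 in 936, per the file headers. A second table of the authors holds log2 values with equal quantiles on every array and a median of 6.53. The sources used here do not name the program behind it. Fits on it gave the same values as fits without background correction, so the alternatives named after each are not independent.

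Gene symbols came from the platform annotation: 34885 probes had 1 gene, 18 several and 10378 none, and only the first kind was used. Normexp background correction (from the detection p-values, offset 16), quantile normalization and log2 were done with neqc of limma 3.58.1 (R 4.3.3; data.table, version 1.17.8). The filter kept probes with a detection p under 0.01 on 3 arrays or more, and each gene was represented by its brightest probe. A limma model of 4 group means over all 12 arrays (8 residual and 5.56 prior degrees of freedom) gave 5 contrasts with Benjamini-Hochberg adjustment over 8898 genes, called under 0.05. Adjusted p-values of a gene's other probes came from a separate limma fit, adjusted over all 13737 kept probes with a gene. They are therefore not on the same footing as those of the probes used. The test was tried on simulated data with independent noise on each array, which leaves out the correlation of same-numbered arrays described below. Genes and lists were chosen with earlier results of these data known, and every member is named, with values where it passed in at least 1 contrast.

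After group means were removed, same-numbered arrays of a genotype correlated at 0.34 to 0.64 (6 pairs, every one over 0.1), others of the genotype at -0.47 to 0.25, and same-numbered arrays across genotypes at -0.38 to 0.45. The numbers were therefore read as pairs within a genotype, as a block in the alternative fit. The block was fixed for the IFNβ and interaction contrasts. For the contrasts between genotypes it was a correlation estimated over all genes. Alternatives covered background correction, normalization, filters, probes, blocks and left-out arrays.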

Additional observations from a re-analysis of the deposited data

Results flagged for a closer look

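Timp3 was singled out because all 3 IFNβ-treated DKO arrays lay above, and all 3 treated WT arrays below, the untreated arrays of their own genotype. The difference of the changes, DKO minus WT, was 0.71 on the log2 scale, and its limma adjusted p of 0.0503 lay just over the threshold.

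Mmp17 was singled out because it was left out of the tests and yet was detected on 2 arrays, both of DKO cells after IFNβ, and on 0 arrays of the other groups. Its raw intensity was 101.4, 109.2 and 110 in DKO cells after IFNβ, against 88.8, 101.4 and 106 in untreated DKO cells. It was 93.5, 88.2 and 113 in WT cells after IFNβ, against 89.8, 85 and 104 in untreated WT cells, so the groups overlapped.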

How the results depend on the processing

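No called result changed sign under any alternative run, and 13 of 28 calls were lost at least once, refits within a background set included. In untreated cells the calls of Adamts12, Adamts6, Mmp11, Mmp13, Mmp16, Mmp23, Mmp3 and Timp1 held wherever they were tested, and after IFNβ those of Adamts12, Adamts6, Mmp13, Mmp2, Mmp23, Mmp3 and Timp1. The interaction count was 1 in place of 0 without background correction, with an offset of 50, in the authors' log2 table and with cyclic loess. It was also 1 with each block: by replicate number within a genotype, by replicate number over genotypes and by background set. The gene was Timp3 each time. Over all tested genes the interaction count was 93, and 113, 114, 113, 103, 254, 153 and 201 in the same order. The count for IFNβ in DKO cells, 4, became 2 with median scaling and 2 with no filter on dim probes. It became 8 with the replicate block within a genotype. Over all tested genes this count was 1015, and 1049, 1011 and 1923 in the same order. Within a background set, each group of 1 genotype is a single array, so counts from those refits are not given. The count for DKO against WT after IFNβ, 8, became 5 when only the 12 genes detected on all arrays were tested. Over all genes it was 2831 of 8898, and 2238 of 7202 with that filter. Between genotypes the replicate block within a genotype entered as a correlation shared by all pairs (0.43), not as a fixed block, and changed no call. Leaving out 1 array at a time gave 1 to 4 calls for IFNβ in DKO cells, 2 to 5 for IFNβ in WT cells, 0 to 1 for the interaction, 10 to 12 between untreated genotypes and 7 to 11 after IFNβ. Over all tested genes the first 3 of these ranges were 713 to 1029, 1198 to 1740 and 65 to 106 calls. Between genotypes they were 2319 to 3078 untreated and 2264 to 2876 after IFNβ. Some of these refits used another probe of the gene, as for Timp1 without treated WT replicate 2. Timp3 untreated was lost as a mean of its probes (-0.31). It was also lost within the lower background set (-0.25), as was Mmp2 untreated (-0.48), and Mmp14 untreated was lost within the higher set (0.42). Among the IFNβ calls, Timp1 was lost in both genotypes with median scaling. Timp2 in WT cells was lost with no filter on dim probes. Mmp11 in DKO cells was lost with cyclic loess and with no filter, and Mmp13 in DKO cells with no filter. Timp1, Timp2 and Mmp11 also lost these calls within a background set. Refits within a set hold too few arrays to decide any of these calls. Without background correction, genotype differences of dim genes shrank but kept their calls, except that of Adamts1 in untreated cells. Median scaling put the median IFNβ change of all genes in DKO cells at -0.13. Genes near background have compressed differences.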
